A study of Mus musculus with 4 samples.

Results

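Many cyclophilins are enzymes that turn the peptide bond before proline residues, and cyclosporine A binds proteins of this family inside cells. Whether each member binds the drug was not examined. The complex of the drug with cyclophilin A, the product of Ppia, binds and blocks the phosphatase calcineurin. FKBP1A belongs to a separate family of prolyl isomerases and does the same for the drug FK506, so it is an immunosuppressant-binding protein that cyclosporine A does not use. The RNA of these genes was examined in bulge stem cells, the resting stem cells of the hair follicle. Members were all rows of the deposited value table that the platform annotation assigns to exactly 1 gene among Ppia, Ppib, Ppic, Ppid, Ppif, Ppig, Ppih, Ppil1, Ppil2 and Fkbp1a. This gave 19 of 28815 rows for 10 genes, of which 7 named Ppia, 4 named Ppih and 1 named each other gene. No filter on low values was used, so every member is described.

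Male CD-1 mice, aged 56 days (P56) and in the second telogen, when follicles rest, had received 100 mg/kg CSA or vehicle by injection into the peritoneum on 3 days before the skin was taken. The labels do not spell out CSA, which in work on calcineurin stands for cyclosporine A. Cells bearing both alpha6 integrin and CD34 were sorted, and amplified, biotin-labelled cDNA of 2 CSA and 2 vehicle samples was measured on 4 arrays. The design text calls the replicates biological and does not say how many mice made each, and no untreated mice or other agents are among the groups. The series title names Calcineurin/Nfatc1 signalling and resting skin stem cells as its subject.

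The deposited numbers are logarithms, read here as log2, and the authors had centred every row on a baseline of unstated origin. A value of 0 therefore means the baseline and not the absence of RNA, and levels of different genes cannot be ranked. If the base were not 2, every difference below would change by a common factor, and the tests would not. In bulk RNA of sorted cells, fewer cells of a type and less RNA per cell cannot be told apart. The array medians over all rows lay between -0.02 and 0.06. The SD over all rows was widest on vehicle replicate 1, at 0.47. It was 0.41 on CSA replicate 1, 0.37 on CSA replicate 2 and 0.37 on vehicle replicate 2. Cd34, whose product was used for the sort, stood at 1.75 and 3.60 on the CSA arrays against 4.05 and 4.25 in vehicle. CSA thus lay below vehicle without overlap (-1.47, limma adjusted p of 0.9999). This was so for 6 of 15 bulge marker genes, Cd34 among them, and for 15.3% of all genes. CSA lay above vehicle without overlap for 0 of the 15, against 10.9% of all genes. What the difference in Cd34 within the sort does to the members' values was not tested. Itga6, the gene of alpha6 integrin, reached 0.08 on vehicle replicate 2 and lay below the baseline on the other arrays.

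Calcineurin acts on genes through NFAT factors, which recognise the core GGAAA. RefSeq promoter windows were read for 8 of the 10 genes (assembly GRCm38.p6, 250 bases before the transcription start to 50 after it). Ppic and Ppid are named only. Members' windows on 1 chromosome were left out of the reading, so a missing window need not mean that RefSeq has none. Windows are shown for Ppia, whose product is the main target of the drug, for Fkbp1a and Ppif, whose CSA and vehicle arrays did not overlap, and for Ppih, whose values spread most. Each is written from 5′ to 3′ on the strand of the gene, and capitals mark GGAAA or its complement TTTCC on either strand; matches of the 2 spellings did not overlap each other.
Ppia, chr11:6415617-6415916, plus strand: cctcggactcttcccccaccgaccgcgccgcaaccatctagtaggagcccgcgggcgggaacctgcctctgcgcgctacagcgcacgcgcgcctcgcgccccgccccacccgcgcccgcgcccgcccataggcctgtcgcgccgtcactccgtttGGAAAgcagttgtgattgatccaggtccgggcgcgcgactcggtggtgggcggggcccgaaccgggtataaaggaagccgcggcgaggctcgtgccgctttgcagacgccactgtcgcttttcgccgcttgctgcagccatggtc
Fkbp1a, chr2:151542233-151542532, plus strand: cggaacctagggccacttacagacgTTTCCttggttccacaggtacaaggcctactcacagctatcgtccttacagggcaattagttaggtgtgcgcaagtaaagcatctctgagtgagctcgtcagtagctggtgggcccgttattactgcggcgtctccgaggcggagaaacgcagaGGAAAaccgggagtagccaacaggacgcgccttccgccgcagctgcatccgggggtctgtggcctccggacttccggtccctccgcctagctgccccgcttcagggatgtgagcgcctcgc
Ppif, chr14:25693920-25694219, plus strand: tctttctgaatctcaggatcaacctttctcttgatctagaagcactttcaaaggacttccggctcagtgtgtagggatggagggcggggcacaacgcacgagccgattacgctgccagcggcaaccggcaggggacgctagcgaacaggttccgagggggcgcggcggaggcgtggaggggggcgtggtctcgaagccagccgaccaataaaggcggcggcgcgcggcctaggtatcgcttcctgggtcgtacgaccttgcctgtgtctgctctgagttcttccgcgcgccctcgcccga
Ppih, chr4:119320474-119320773, minus strand: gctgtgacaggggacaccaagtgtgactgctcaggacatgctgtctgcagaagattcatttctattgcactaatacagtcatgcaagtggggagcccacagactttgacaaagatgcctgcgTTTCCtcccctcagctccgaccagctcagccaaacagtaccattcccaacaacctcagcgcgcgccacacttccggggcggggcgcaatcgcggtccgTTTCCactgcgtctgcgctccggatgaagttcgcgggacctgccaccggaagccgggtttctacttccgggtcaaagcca
The core occurred in 5 of the 8 windows and in 61.3% of the 32851 windows of the table. The Ppia window held 1 match, 95 bases before the start. The windows of Fkbp1a and Ppih held 2 each, that of Ppig 3 and that of Ppil2 2, and the letters were not found in those of Ppib, Ppif and Ppil1. A match in so short a core describes the letters of the window and says nothing of binding.

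None of the member rows passed the test between CSA and vehicle. limma called 0 of 28815 rows at a Benjamini-Hochberg adjusted p under 0.05, a percentage of 0, with 0.9999 as the smallest adjusted value. Without adjustment limma put 845 rows (2.93%) under 0.05, 1.8% of all rows higher in CSA and 1.13% lower, and 0 of these were members. For 2 arrays against 2 the smallest two-sided exact permutation p is 0.333. Of the 19 member rows 12 had a higher mean in CSA and 7 a lower one, against 42.1% higher over all rows. The members' differences ran from -0.22 to 0.51 on the log2 scale with a median of 0.04, and the median of all rows was -0.04. The members' median was -0.01 after quantile normalization, so its sign is not settled. The means of 0 member rows stood at least 1.5-fold apart, which was so for 9.1% of all rows. With the rows of a gene averaged, 8 of the 10 genes were higher and 2, Ppia and Ppif, lower, against 41.2% higher over all genes; Ppic and Ppid had negative differences after quantile normalization. The unadjusted limma p was under 0.05 for 0 of the 10 genes and for 2.78% of all genes.

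**Figure D1:**
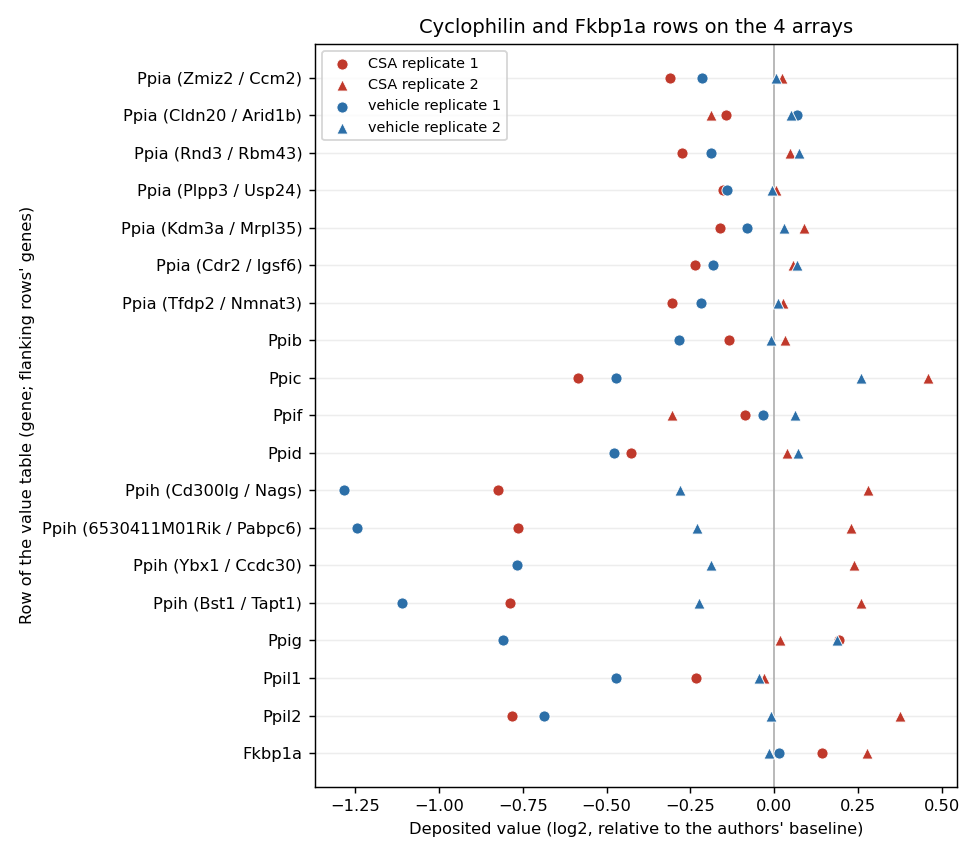
Deposited value of each member row (horizontal axis, log2 relative to the authors' baseline) on the 2 CSA arrays (red) and 2 vehicle arrays (blue); circles are replicate 1, triangles replicate 2, and rows of Ppia and Ppih are told apart by the genes that the flanking rows name. The circles lie left of both triangles in 15 of 19 rows, and red and blue part without overlap for 1 row of Ppia, for Ppif and for Fkbp1a; in the Ppih row between Ybx1 and Ccdc30 both circles lie at -0.77 and cover each other.

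The arrays numbered replicate 1 held the lowest values of most members, whichever the treatment. In 15 of the 19 member rows both replicate 1 arrays, CSA and vehicle, lay below both replicate 2 arrays, which was so for 15.4% of all rows. The rows belonged to Ppia (6 of its 7), Ppib, Ppic, Ppid, Ppih (all 4), Ppil1 and Ppil2. With the rows averaged by gene it was so for 7 of 10 genes and for 17.2% of all genes. Ppif, Ppig and Fkbp1a did not show it. The median of the member rows was -0.28 on CSA replicate 1 and -0.28 on vehicle replicate 1, against 0.05 on CSA replicate 2 and 0.005 on vehicle replicate 2. The labels do not say what a replicate number shares between the groups. A fit with the number as a block is described in the last section, and the cause of the pattern was not tested.

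Ppia encodes cyclophilin A, the abundant cytosolic isomerase that carries the drug to calcineurin. The row between those of Zmiz2 and Ccm2, which also flank Ppia in the RefSeq order, had -0.31 and 0.02 in CSA against -0.22 and 0.005 in vehicle (replicate 1 before replicate 2, here and in later pairs). Each group thus held a low array and an array at the baseline, and the groups overlapped. The difference between CSA and vehicle was -0.04 ± 0.20 (± limma's moderated standard error here and below, 2 arrays per group), with a 95% interval from -0.59 to 0.51. The other 6 rows named Ppia too, but the genes beside them in the table do not neighbour Ppia, and 9 of the 10 accessions listed for any Ppia row are listed for all 7. Ppia has many near-identical copies, so the rows are not independent measures, and which copy's RNA a row reports is uncertain.

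Among these rows 6 of 7 ran together. On CSA replicate 1 they lay between -0.31 and -0.15, and on vehicle replicate 1 between -0.22 and -0.08. On CSA replicate 2 they lay between 0.01 and 0.09, and on vehicle replicate 2 between -0.01 and 0.07. Their differences were between -0.06 and 3.67e-05, and standard errors were 0.15 to 0.20. The remaining row between Cldn20 and Arid1b had -0.14 and -0.19 in CSA and 0.07 and 0.05 in vehicle. Here both CSA arrays lay below both vehicle arrays and the replicates stood close together (SD 0.03 in CSA and 0.01 in vehicle). Its difference of -0.22 ± 0.13 (95% interval -0.60 to 0.15) was the largest of the members relative to its error, with a limma unadjusted p of 0.170 and an adjusted p of 0.9999. This row was set apart from the other 6 after its values were seen.

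**Figure D2:**
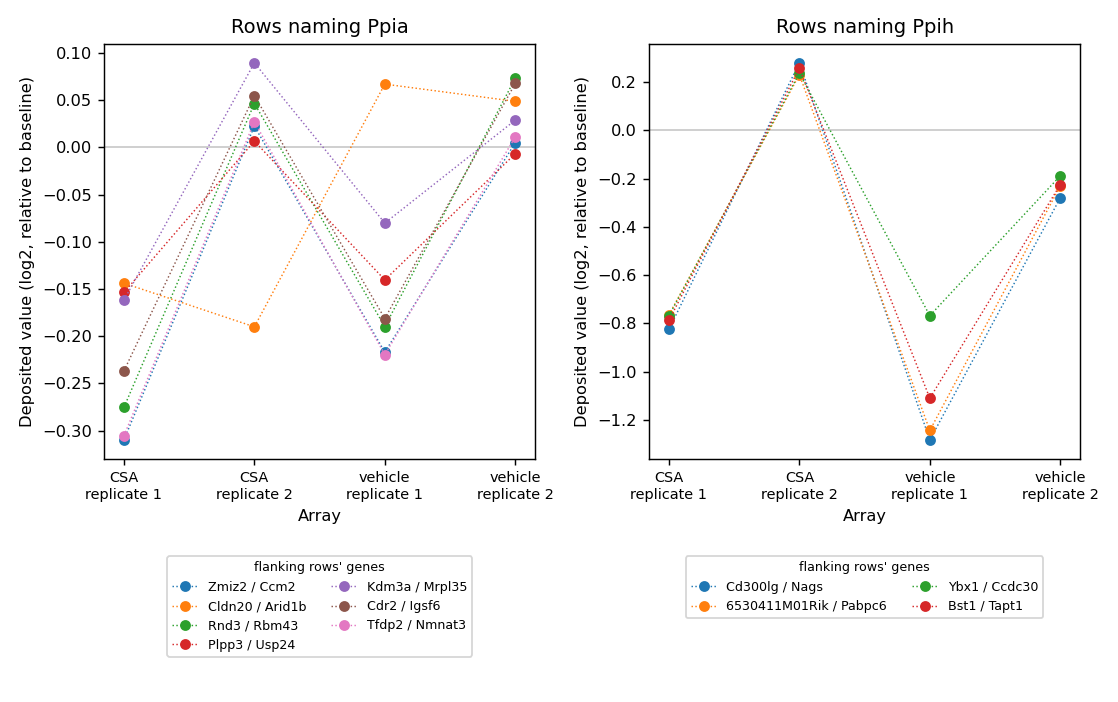
Deposited values (vertical axis, log2 relative to the authors' baseline) of the 7 rows naming Ppia (left) and the 4 naming Ppih (right) on each array; a colour is a row, named by the genes of its flanking rows, and dotted lines only join the points of a row. For Ppia 6 rows go up and down together and the row between Cldn20 and Arid1b does not; for Ppih the rows part on vehicle replicate 1, from -1.28 to -0.77.

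Ppib and Ppic encode cyclophilins of the secretory pathway. Ppib, cyclophilin B of the endoplasmic reticulum, works with the collagen prolyl 3-hydroxylase P3h1 and Crtap. It had -0.14 and 0.03 in CSA and -0.28 and -0.01 in vehicle. The groups overlapped, and the difference was 0.09 ± 0.18 (95% interval -0.40 to 0.59). Without vehicle replicate 1 it was -0.04. Ppic, cyclophilin C, had -0.58 and 0.46 in CSA and -0.47 and 0.26 in vehicle, so that the arrays of each group stood far apart on either side of the baseline. Its difference of 0.04 ± 0.48 had a 95% interval from -1.29 to 1.38 and was -0.05 after quantile normalization.

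Ppif encodes cyclophilin D, the isomerase of the mitochondrial matrix that promotes opening of the permeability transition pore and whose action cyclosporine A blocks. It had -0.09 and -0.30 in CSA and -0.03 and 0.06 in vehicle. Both CSA arrays lay below both vehicle arrays, though CSA replicate 1 and vehicle replicate 1 were only 0.05 apart, and with each array centred on its median the groups overlapped. The difference was -0.21 ± 0.16 (95% interval -0.65 to 0.23), and -0.10 without CSA replicate 2. Over all rows 15.2% had both CSA arrays below both vehicle arrays, and among the members 2 of 19 rows did, this one and the Ppia row set apart above. Ppifos, the antisense gene beside Ppif, had 0.39 and -0.40 in CSA and -0.21 and 0.22 in vehicle, with a difference of -0.01 ± 0.35.

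Ppid encodes a cyclophilin whose tetratricopeptide repeats bind Hsp90. It had -0.43 and 0.04 in CSA and -0.48 and 0.07 in vehicle. The pair of replicate 1 arrays was low and the pair of replicate 2 arrays near the baseline in both groups. Its difference was 0.01 ± 0.29 (95% interval -0.81 to 0.83), and it was -0.07 after quantile normalization.

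The nuclear cyclophilins Ppih, Ppig, Ppil1 and Ppil2 act in or beside the spliceosome. Ppih, cyclophilin H, is part of the U4/U6 particle, where it binds Prpf4. In the row between Ybx1 and Ccdc30, which flank Ppih in the RefSeq order, it had -0.77 and 0.24 in CSA and -0.77 and -0.19 in vehicle. The replicate 1 arrays of both groups were low to the same extent, and CSA replicate 2 alone stood above the baseline. The difference was 0.21 ± 0.44 (95% interval -1.02 to 1.44). The other 3 rows list the same 7 accessions and are flanked by genes that do not neighbour Ppih. They differed by 0.51 ± 0.55, 0.47 ± 0.53 and 0.40 ± 0.51. Their values were like those of the flanked row on 3 arrays and lower on vehicle replicate 1, between -1.28 and -1.11. The differences of the 4 rows ran from 0.72 to 1.06 without CSA replicate 1, and from -0.29 to -0.03 without CSA replicate 2.

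Ppig encodes a large cyclophilin with an arginine- and serine-rich tail. It had 0.19 and 0.02 in CSA and -0.81 and 0.19 in vehicle. Vehicle replicate 1 was low by itself, and the other vehicle array lay at the level of the higher CSA array. The difference was 0.42 ± 0.39 (95% interval -0.67 to 1.503) and -0.08 without vehicle replicate 1. Ppil1, which binds the splicing factor Snw1, had -0.23 and -0.03 in CSA and -0.47 and -0.04 in vehicle, a difference of 0.13 ± 0.22 (95% interval -0.48 to 0.73). It too was lowest on vehicle replicate 1, without which the difference was -0.09. Ppil2, a cyclophilin with a U-box, had -0.78 and 0.37 in CSA and -0.69 and -0.01 in vehicle. Its difference was 0.15 ± 0.50 (95% interval -1.26 to 1.55), and it was -0.43 without CSA replicate 2.

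Fkbp1a was the member with both CSA arrays above both vehicle arrays, 1 of 19 rows, against 11.4% of all rows. In either direction 3 of 19 member rows did not overlap, against 26.6% of all rows. It had 0.14 and 0.28 in CSA and 0.02 and -0.02 in vehicle. The vehicle arrays were equal in size and opposite in sign, which within 2e-06 was so for some pair of arrays in 18.7% of all rows, and the vehicle mean is therefore 0. The difference was 0.21 ± 0.14 (95% interval -0.19 to 0.61), with a limma unadjusted p of 0.214 and an adjusted p of 0.9999. Quantile normalization gave 0.22 and centring each array 0.24, and the difference ran from 0.14 without CSA replicate 2 to 0.28 without CSA replicate 1.

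**Figure D3:**
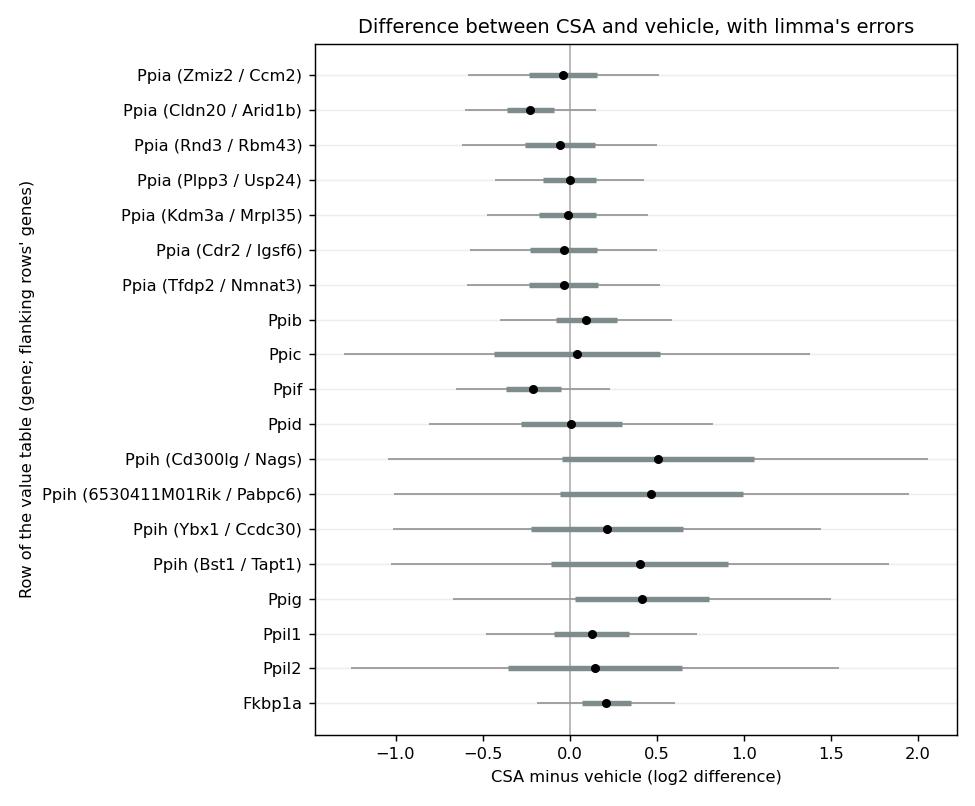
Difference between CSA and vehicle of each member row (horizontal axis, log2) with limma's moderated standard error (thick bar) and 95% interval (thin bar), 2 arrays per group. All 19 intervals hold 0, and they are widest for Ppih, Ppil2, Ppic and Ppig, whose replicates lay far apart.

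Cyclophilins outside the members, a list of 10 genes of which 8 had a row naming them alone, were higher in CSA for 6 and lower for 2. Their median difference was 0.30, against -0.04 over all genes. Omitting single arrays gave medians from 0.24 (vehicle replicate 1 dropped) to 0.62 (CSA replicate 2 dropped). Dropping CSA replicate 1 gave 0.44, and dropping vehicle replicate 2 gave 0.61. By array, vehicle replicate 1 was the lowest array for 5 of the 8, and over all genes for 4283 of 19935. Ppil4, a cyclophilin with an RNA recognition motif, had 0.52 and 0.29 in CSA and -0.52 and -0.10 in vehicle. Both CSA arrays lay above both vehicle arrays, and the difference of 0.71 ± 0.22 had a limma unadjusted p of 0.0321 and did not pass. Ppwd1, which carries WD repeats before its isomerase domain, differed by 1.02 ± 0.57 and by 0.33 without vehicle replicate 1. Ppil6 differed by 1.19 ± 0.69, with CSA replicate 1 at 1.18 and CSA replicate 2 at -0.22, and by 0.49 without CSA replicate 1. Over all genes, rows of a gene averaged, 10.9% had both CSA arrays above both vehicle arrays.

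Other FKBP and parvulin genes went both ways, 7 of 13 higher and 6 lower. The median of this list, 0.08, was -0.12 when vehicle replicate 1 was left out and -0.01 when CSA replicate 2 was. Fkbp5, a co-chaperone of steroid receptors that glucocorticoids induce, had 3.22 on CSA replicate 1 and -0.50 on CSA replicate 2, against -0.45 and -0.48 in vehicle. A single array thus stood apart, and the difference of 1.83 ± 1.34 was -0.03 without it. In vehicle Fkbpl had 0.13 and -0.13, below its CSA values of 0.19 and 0.28, and it differed by 0.23 ± 0.16, and by 0.10 without vehicle replicate 2. Aipl1 differed by -0.31 ± 0.19, and by -0.12 without vehicle replicate 1. Calcineurin and NFAT genes, the target of the drug complex, were higher for 9 of 12 (median 0.08, and between 0.04 and 0.17 when each array was left out) and none of these passed. Ppp3cc, a catalytic subunit, differed by 0.99 ± 0.54 and by 0.37 without vehicle replicate 1. The regulatory subunit gene Ppp3r1 differed by 0.24 ± 0.20 and by 0.04 without that array. Rcan3 differed by -0.34 ± 0.44 and by 0.24 without CSA replicate 1. Ppp3ca differed by 0.12 ± 0.18, Ppp3cb by -0.06 ± 0.47, Nfatc1 by 0.09 ± 0.41 and Rcan1 by 0.07 ± 0.29. Each of these 4 took either sign when single arrays were left out, Nfatc1 from -0.44 to 0.62 and Ppp3cb from -0.60 to 0.47.

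Genes that fold collagen and other proteins in the endoplasmic reticulum, where Ppib works, were lower in CSA for 16 of 21, with a median of -0.30 over genes. CSA and vehicle arrays stood apart for 7 of the 21, CSA above in 3 and below in 4, against 10.9% above and 15.3% below over all genes, so the count lies near that of all genes. P3h1, the partner of Ppib, had -0.07 and -0.18 in CSA and 0.14 and 0.26 in vehicle, a difference of -0.33 ± 0.15. Serpinh1, the collagen chaperone HSP47, differed by -0.54 ± 0.29 and by -0.24 without CSA replicate 1, and the lectin chaperone gene Canx by -0.36 ± 0.15. In these 3 genes both CSA arrays lay below both vehicle arrays, while Crtap overlapped (0.01 ± 0.47). Hspa5, the chaperone BiP, went the other way with 0.49 and 0.08 in CSA against -0.91 and -0.28 in vehicle (0.87 ± 0.30, and 0.56 without vehicle replicate 1), as did P4ha2, a collagen prolyl 4-hydroxylase, at 1.37 ± 0.51. P4ha2 was 1.29 on CSA replicate 1 and differed by 0.71 without it. CSA replicate 1 was the lowest array for 14 of the 21 genes, and over rows the list's median of -0.29 was 0.03 without it and -0.01 without vehicle replicate 2.

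Genes of the mitochondrial pore and its calcium supply, around Ppif, were higher for 11 of 18 and lower for 7 (median 0.02). CSA lay above vehicle without overlap for 5 of the 18 and below for 1, against 10.9% and 15.3% of all genes. Over rows the median of 0.02 was 0.31 without CSA replicate 1, 0.27 without vehicle replicate 2 and -0.07 without vehicle replicate 1. Slc25a5, the ADP/ATP carrier ANT2, had 3 rows that differed by 0.91 ± 0.25, 0.90 ± 0.25 and 0.90 ± 0.26. In each both CSA arrays lay above both vehicle arrays; in the row with the largest difference the values were 0.10 and -0.31 against -1.24 and -0.80. The smallest limma unadjusted p of the 3 was 0.0234, and none passed. Their values ran close together (-1.24, -1.19 and -1.12 on vehicle replicate 1), and whether the 3 rows are independent measures was not examined. Slc25a4, the carrier ANT1, differed by -0.40 ± 0.35, and by 0.04 without CSA replicate 1. Hk2, the hexokinase that docks on mitochondria, had 2.60 and 0.97 in CSA and -0.40 and 0.45 in vehicle, a difference of 1.76 ± 0.67 that was 0.95 without CSA replicate 1. Atp5o, an ATP synthase subunit, differed by 0.70 ± 0.33, and by 0.37 without vehicle replicate 1.

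Spliceosome genes, the surroundings of Ppih, Ppil1, Ppil2 and Ppig, were higher for 10 of 18 and lower for 8, with a median of 0.26. The list had 30 rows, 11 of them naming Cdc5l, and over rows the median was 0.48. A filter at the 25th percentile of the row mean kept 11 of the 30 rows, with a median of 0.08. In centred rows that mean is a distance from the baseline and not a level of RNA. The Cdc5l rows lay between -1.39 and -0.97 on vehicle replicate 1 and between -0.13 and 0.001 on the other arrays. Whether the Cdc5l rows are independent measures was not examined. Prpf4, the partner of Ppih, had 0.02 and 0.11 in CSA and -0.95 and -0.40 in vehicle, a difference of 0.74 ± 0.24 (limma unadjusted p of 0.0384) that was 0.46 without vehicle replicate 1. Crnkl1 differed by 0.75 ± 0.25, and by 0.49 without CSA replicate 1. Eftud2, the GTPase of the U5 particle, differed by 0.68 ± 0.29, and by 0.32 without vehicle replicate 1. Prpf3 differed by 0.38 ± 0.26 and Snw1 by 0.22 ± 0.17, and by 0.17 and 0.08 without vehicle replicate 1. Prpf31 differed by -0.26 ± 0.65, and by 0.41 without CSA replicate 1. Vehicle replicate 1 was the lowest array for 10 of the 18 genes, and over all genes for 4283 of 19935. Without vehicle replicate 1 the list's median over rows was -0.06.

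The Hsp90 machinery around Ppid was higher for 8 of 14 genes and lower for 6 (median 0.07). The 3 rows of Hsp90aa1 differed by -0.10 to 0.04 with standard errors near 0.30. Hspa8, the constitutive heat shock protein, differed by -0.25 ± 0.14, -0.21 ± 0.14 and -0.48 ± 0.43 in its 3 rows, of which the last overlapped between groups and was 0.08 without CSA replicate 2. The largest differences of Ptges3 and of the phosphatase gene Ppp5c were 0.59 ± 0.38 and 0.73 ± 0.47, and without vehicle replicate 1 they were 0.10 and 0.11. Over rows the list's median of 0.06 was -0.24 without that array.

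Binding partners of FKBP1A were lower for 8 of 13 (median -0.10, and -0.01 without CSA replicate 2). Itpr3, a calcium release channel of the endoplasmic reticulum, had 0.10 and -0.10 in CSA and 0.63 and 0.55 in vehicle. Both CSA arrays lay below both vehicle arrays, and the difference of -0.59 ± 0.15 (limma unadjusted p of 0.0196) did not pass. The activin receptor gene Acvr1b differed by -0.61 ± 0.32, and by -0.21 without vehicle replicate 1. Bmpr1a, a BMP receptor, differed by -0.38 ± 0.24 and by -0.11 without CSA replicate 2. Tgfbr1, the type I receptor that FKBP1A holds inactive, differed by 0.23 ± 0.32 (-0.17 without vehicle replicate 1) and Mtor by 0.14 ± 0.16 (0.03 without it). Bsg, the receptor of secreted cyclophilin A, had -0.33 and 0.38 in CSA and -0.32 and 0.07 in vehicle, with its replicate 1 arrays low in both groups (0.15 ± 0.32, and -0.21 without CSA replicate 2). Of its list 4 of 8 genes were higher (median 0.07, and -0.08 without CSA replicate 2), among them the matrix metalloproteinases Mmp2 at 0.64 ± 0.35 and Mmp14 at 0.55 ± 0.30, which were 0.22 and 0.24 without CSA replicate 1. Lgals3 differed by 0.24 ± 0.20, and by 0.04 without vehicle replicate 2. Over all genes 10.9% had the CSA arrays above and 15.3% below without overlap.

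**Figure D4:**
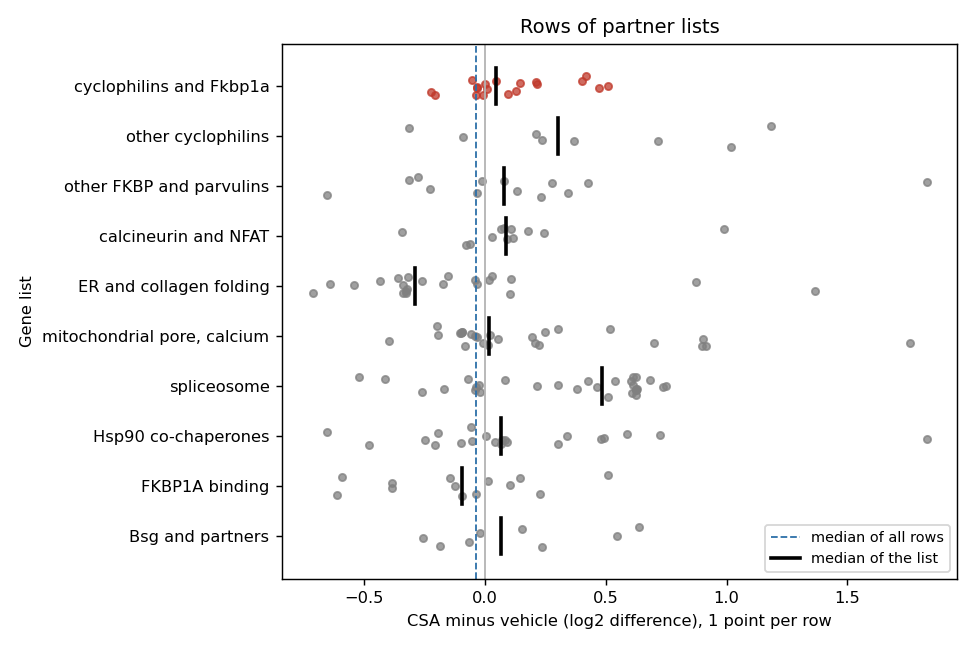
Difference between CSA and vehicle (horizontal axis, log2) for each row of the members (red) and of 9 lists of related genes (grey), with each list's median (black) and the median of all rows (dashed). The members lie between -0.22 and 0.51, while single rows of other lists reach 1.83 (Fkbp5, which 2 lists hold).

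The rows most like a member were found by the root mean square difference over the 4 arrays. Nearest to the Ppia row between Cldn20 and Arid1b were rows of Grin2d (0.0121), Telo2 (0.0233) and Tmem71 (0.0270). This member stays close to the baseline, and 1034 rows naming another gene lay within 0.1 of it. Nearest to the Ppih row with the widest range were rows of Sdhaf4 (0.119), Dusp22 (0.131) and Cebpg (0.140), and 0 rows lay within 0.1. Both kinds of neighbour were picked for likeness, so their likeness is no test.

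Markers of other skin cells were read beside the members. The differentiated epidermis list was highest on vehicle replicate 1 for 10 of 12 genes, with medians of -0.70 and -0.49 in CSA and 0.50 and -0.40 in vehicle. The same array was highest for 8 of 12 fibroblast, 9 of 10 endothelial, 10 of 11 immune, 5 of 7 sebocyte, 5 of 6 skeletal muscle and 0 of 7 melanocyte markers. Over all genes it was highest for 8574 of 19935. For the members it was the lowest array in 5 of 10 genes, against 4283 of 19935 over all genes, and the highest in 0. The bulge list was lowest on CSA replicate 1 for 10 of 15 genes (medians 0.16 and 0.80 in CSA and 0.55 and 0.87 in vehicle). Over all genes CSA replicate 1 was lowest for 4529 of 19935. Since rows are centred, it cannot be read from these values which markers were absent, and the part of other cells in the members' values was not tested.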

How the data were processed

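Sorted bulge stem cells of 2 CSA and 2 vehicle samples were measured on arrays of 28815 rows. The deposited values were read as log2 and had been centred per row by the authors. How background was corrected and arrays were normalized is not given by any label, and mm8 is the single build in the submitters' processing notes. Groups and replicate numbers come from the sample titles. Rows were named through the platform annotation: 21780 named 1 gene, 1605 several and 5430 were not listed. Promoter windows and gene order come from RefSeq (GRCm38.p6), which is not the build of the notes, and served for letters, names and neighbours only.

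CSA was compared with vehicle by limma 3.58.1 in R 4.3.3 (lmFit and eBayes without trend, two-sided, no block, no filter) on every row, with Benjamini-Hochberg adjustment over 28815 rows and a threshold of 0.05. Adjusted p-values and standard errors are limma's. The prior degrees of freedom were 1.88. The script was run on simulated arrays with known differences, and how large a difference could have been called is not reported here. The number of arrays limits the precision, p-values measure only the spread between these samples, and signal over background was not used here.

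Lists of related genes and cell type markers came from textbook knowledge and were described by counts and medians. Named genes were all members, a fixed set of partners, and the up to 3 genes per list furthest from 0 by moderated t; likeness was sought for the member rows with the largest absolute t and the largest range. Members and lists were chosen with earlier results of these data known. Alternatives were quantile normalization, arrays centred on their medians, eBayes with a trend or robust, 1 row per gene, rows averaged, a filter at the 25th percentile of the row mean, the replicate number as a block, and leaving out each array.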

Additional observations from a re-analysis of the deposited data

How the results depend on the processing

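limma called 0 of the rows tested, of the member rows and of the partner list rows under each of the 12 alternatives. With an array left out, the other group alone gave the spread and the lone array was assumed to vary like it, so these counts of 0 say nothing about stability. Quantile normalization and centring are the alternatives with 4 arrays that can move a row's difference. Of the 19 member rows, 15 kept their direction under both, and 3 (Fkbp1a, Ppif and the Ppia row beside Cldn20) also when each array was left out. After quantile normalization the values were -0.049 for Ppic, -0.066 for Ppid and -0.012 for the Ppia row beside Usp24, and with arrays centred the Ppia row beside Mrpl35 had 0.016. Member rows with CSA below vehicle without overlap numbered 2 of 19, against 15.2% of all rows, and 1 of 19 with arrays centred (14.9%). With 1 row per gene it was 1 of 10 (15.4% of all genes), and with rows averaged 1 of 10 (15.3%). The filter left 3 member rows, of which 1 was below (16.5% of all rows left). When each array was left out, the rows with CSA below numbered 2 to 10 of 19, against 25.2% to 48.1% of all rows. Those with CSA above numbered 1 to 13, against 24.7% to 32.5% of all rows. The highest counts were 10 below without CSA replicate 2 (30.3% of all rows) and 13 above without CSA replicate 1 (26.5%). A lone array overlaps 2 less readily, so the shares over all rows rose too. What set the members' counts was not tested. When each array was left out in turn, the Ppia rows ran from -0.20 to 0.13 (beside Zmiz2), -0.22 to 0.10 (Rnd3), -0.080 to 0.080 (Usp24), -0.14 to 0.12 (Mrpl35), -0.18 to 0.11 (Cdr2) and -0.20 to 0.13 (Tfdp2). The Ppih rows ran from -0.043 to 1.06 (Cd300lg), -0.036 to 0.98 (Pabpc6), -0.29 to 0.72 (Ybx1) and -0.12 to 0.93 (Bst1). Ppib ran from -0.042 to 0.23, Ppic from -0.48 to 0.57, Ppid from -0.27 to 0.28, Ppig from -0.082 to 0.91, Ppil1 from -0.086 to 0.34 and Ppil2 from -0.43 to 0.72.

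With the replicate number as a block limma called 0 rows, and its smallest adjusted p was 0.868. In this balanced design a block cannot move a difference, and it changes only the error. The Ppih rows beside Cd300lg, Pabpc6 and Bst1 then had 0.51 ± 0.13, 0.47 ± 0.12 and 0.40 ± 0.13, each with an adjusted p of 0.868, and the row beside Ybx1 had 0.21 ± 0.18. Deviations of same-numbered arrays correlated at 0.216 over rows, with 2 arrays per group, and the labels do not say that a number marks a shared source. Without the block the member furthest from 0 relative to its error had a moderated t of -1.68. Without signal over background it is not known which rows were well measured.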
